A study of Homo sapiens with 32 samples.

Results

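Clones E4 and A3 are both IGF2BP3 knockout clones of HCT116, made with the same guide RNA, and their comparison holds 8 of the 32 RNA-seq libraries of the series, 4 from each clone. Members were chosen by the clone name in the sample labels: every library of E4 was set against every library of A3, with treatment and replicate number as terms of the model. HCT116 is a human colorectal carcinoma line, and the cells used here also carry a doxycycline-inducible OsTIR1 transgene with a puromycin marker, a feature that the knockout clones share with the parental cells. After transient transfection of a plasmid encoding Cas9, GFP and the guide, single GFP-positive cells were sorted and grown into clones, so E4 and A3 each descend from 1 cell. Each clone was sampled in duplicate after 4 h in 5 µg/mL tunicamycin (TM), which blocks N-glycosylation and causes endoplasmic reticulum (ER) stress, and in duplicate after DMSO at a dilution of 1 in 1000. Set beside them for scale were 8 libraries of 2 parental samples, 4 libraries of IGF2BP3 knockout clone D12 (another guide), and the IGF2BP2 knockout clones B7 and F6 (a guide shared by that pair) and G6, with 4 libraries each. For B7, F6 and G6 the labels give neither a tunicamycin dose nor a duration, and the G6 libraries titled as controls carry tunicamycin as their treatment label. They were placed by title, and G6 enters only the CPM scaling and the alternative fit of all 32 libraries. The labels call the libraries of a clone duplicates without naming separate cultures, so each p-value measures the spread between libraries of 1 clone and not the spread between clones of one genotype.

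IGF2BP3 is an oncofetal RNA-binding protein of the IGF2BP (IMP) family, which binds mRNAs through RRM and KH domains and is known for effects on mRNA stability, translation and localization. It is low or absent in most adult tissues and is re-expressed in many carcinomas. Clones derived from single cells of a carcinoma line can differ in expression whatever the edit, because the line itself is heterogeneous, and clones cut at the same site can also carry different repair products. A contrast between clones that share a guide measures how far such clones lie apart in expression without comparing targeted with untargeted cells.

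The guide shared by E4 and A3 matched the strand opposite to the IGF2BP3 transcript at chr7:23319200-23319219 (GRCh38), inside coding exon 11 of 15, across codons 413 to 420 of 579. Its site is shown because both knockout clones were made with this guide. The line below gives the guide site and flanking bases within exon 11, chr7:23319160-23319254, which need not be the whole exon. It runs 5′ to 3′ on the strand that the guide matches, with the 20 guide bases and the 3 bases of the adjacent PAM in capitals.
Exon 11 of IGF2BP3 with the guide site: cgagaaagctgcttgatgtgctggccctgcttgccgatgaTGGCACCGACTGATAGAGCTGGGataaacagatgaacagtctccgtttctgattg
The edited alleles of E4 and A3 were not analysed here, so no statement is made about which repair products either clone carries.

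Libraries of E4 held 19768759 to 23588704 counted reads and those of A3 held 21467884 to 23135784. At least 1 read was recorded for 21643 to 23139 genes in the replicate 1 libraries of these clones and for 23592 to 24267 in replicate 2. Epithelial markers were present in all 8 libraries, with KRT8 at 1830 to 2566 and EPCAM at 242.9 to 362.7 CPM (read counts scaled to library size and composition). Of 8 fibroblast markers, 4 had any count in these libraries and their summed level was 8.74 to 12 CPM in E4 and 9.60 to 12.1 CPM in A3, nearly all of it COL1A1, while COL1A2 was at 0 and COL3A1 and DCN had at most 1 read in a library. The summed level of 8 leukocyte markers was 0.136 to 0.947 CPM in E4 and 0.263 to 0.761 CPM in A3, and that of 6 endothelial markers 0.454 to 0.692 CPM in E4 and 0.492 to 1.12 CPM in A3.

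IGF2BP3 mRNA, the target of the shared guide, did not pass the test between the clones and was far below the parental level in each. In E4 it stood at 19.77 and 20.64 CPM in DMSO and at 21.25 and 25.15 CPM in TM. In A3 the values were 18.81 and 23.83 CPM in DMSO and 19.49 and 30.12 CPM in TM. The ranges of the clones overlapped, and every one of these 8 libraries lay below the parental range of 69.6 to 83.6 CPM and the clone D12 range of 41.4 to 50.5 CPM. The log2 fold change of E4 against A3 was -0.07 (SE 0.084, 8 libraries, edgeR quasi-likelihood test, adjusted p = 0.693), with a 95% interval from -0.26 to 0.11, or 0.836- to 1.08-fold. The difference was 0.11 among replicate 1 libraries and -0.24 among replicate 2 libraries, so its sign changed with the replicate, and in edgeR neither passed the test (adjusted p = 0.484 and 0.0593). Against the parental cells the log2 fold change of IGF2BP3 was -1.79 in E4 and -1.70 in A3, both set against the same parental libraries. Of its paralogs, IGF2BP2 was at 164.9 ± 11.2 CPM in E4 and 178.2 ± 17.2 CPM in A3 (mean ± SD, n = 4, edgeR adjusted p = 0.209), and IGF2BP1 was under 1 CPM in each of the 8 libraries.

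Although IGF2BP3 mRNA was not told apart between the clones, 948 of 15291 genes tested were called between E4 and A3 at an adjusted p under 0.05 in edgeR, or 6.20%. Of these, 437 were higher in E4 (2.86% of the genes tested) and 511 were lower (3.34%). Most differences were modest: the median size of the log2 fold change among called genes, sign ignored, was 0.42, and 123 genes exceeded 1, 61 higher and 62 lower. The 4 libraries of E4 lay wholly above or below the 4 of A3 for 560 of the called genes, where 6.33% of all genes tested showed that separation. By annotation 889 of the called genes were protein coding. The called genes also included 2 of 2 mitochondrial rRNA genes and 1 of 1 mitochondrial tRNA gene tested, which are apart from the mitochondrially encoded mRNAs given below. The median log2 fold change over all genes tested was 0.0021. Without the replicate term 478 genes were called, and every one of them was among the 948 with the same direction. The count also fell by more than 1.5 times without A3 DMSO replicate 1 (538), A3 DMSO replicate 2 (474), E4 TM replicate 1 (519) or E4 TM replicate 2 (616), and the calls that these fits shared with the full one kept their direction.

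**Figure D1:**
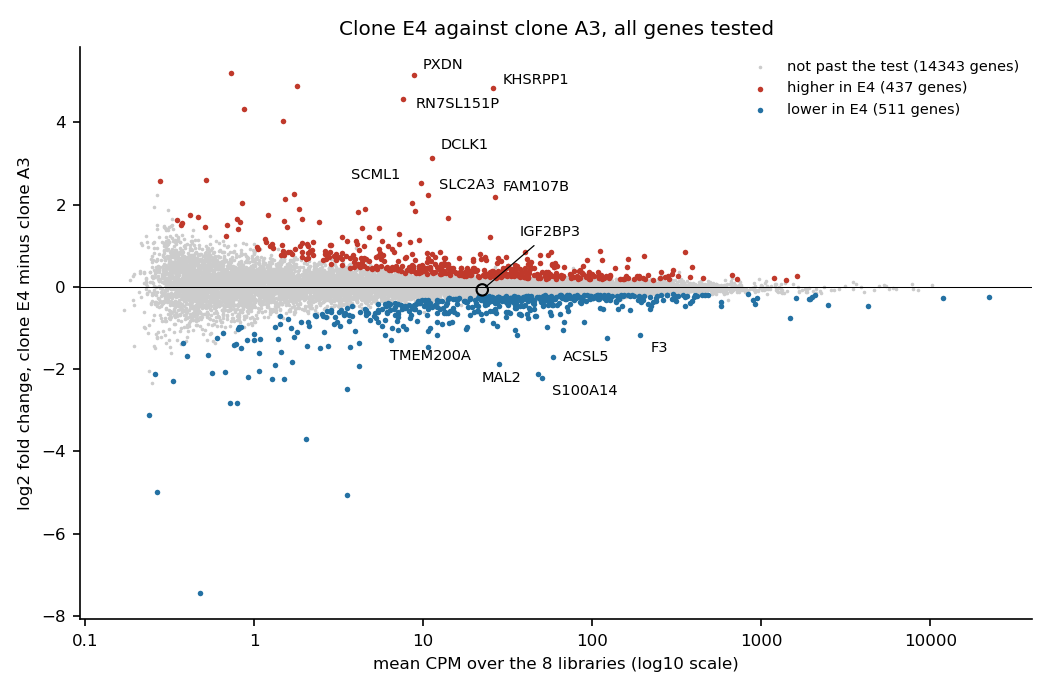
Each point is 1 of 15291 genes, with its mean CPM over the 8 libraries on a log10 axis and its log2 fold change of clone E4 minus clone A3 on the vertical axis; red and blue mark the 437 genes higher and the 511 genes lower in E4. The circled IGF2BP3 lies near 0, while PXDN and KHSRPP1 stand at 5.14 and 4.84 and S100A14 and MAL2 near the lower edge for their level at -2.22 and -2.12.

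Genes of the extracellular matrix, of glucose uptake and of growth signalling were among those with the largest increase in E4. PXDN, which encodes peroxidasin, a peroxidase that cross-links collagen IV in basement membranes, was at 21.3 and 14.2 CPM in DMSO and 19.2 and 14.2 CPM in TM in E4. In A3 the same gene was at 0.526 and 0.484 CPM in DMSO and 0.515 and 0.403 CPM in TM. The clones did not overlap, and the log2 fold change was 5.14 (SE 0.129, edgeR adjusted p = 3.27e-10). Parental cells, with PXDN at 4.92 to 8.89 CPM, lay between the clones. In D12 PXDN was at 0.206 to 0.472 CPM, and no F6 library had a read of it.

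DCLK1, a microtubule-associated kinase used as a marker of tuft cells, was at 19.3 and 19.7 CPM in DMSO and 20.7 and 21.7 CPM in TM in E4. In A3 DCLK1 was at 2.06 and 2.24 CPM in DMSO and 1.78 and 3.13 CPM in TM, with a log2 fold change of 3.14 (SE 0.118, edgeR adjusted p = 9.19e-09). The parental range of DCLK1, 4.25 to 6.16 CPM, lay between the clones without touching either. SLC2A3, the glucose transporter GLUT3, had the same arrangement: 16.1 to 19.8 CPM in E4, 3.19 to 4.43 CPM in A3 and 4.44 to 6.87 CPM in parental cells, with a log2 fold change of 2.23 (SE 0.112, edgeR adjusted p = 1.57e-07). For SCML1, a relative of Polycomb-group genes, E4 ranged from 15.6 to 18.7 CPM and A3 from 2.28 to 3.22 CPM, and again the parental range of 6.72 to 9.35 CPM lay between them (log2 fold change 2.51, SE 0.10, edgeR adjusted p = 1.50e-08).

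MMP14, a membrane-anchored matrix metalloproteinase, placed A3 with D12, and E4 just above the parental range. MMP14 was at 12.8 to 14.5 CPM in E4 and 3.03 to 3.86 CPM in A3, with 8.51 to 12.4 CPM in parental cells and 2.27 to 4.804 CPM in D12 (log2 fold change 2.04, SE 0.094, edgeR adjusted p = 6.28e-08). FAM107B showed a clone difference and a TM response together. FAM107B went from 24.6 and 27.2 CPM in DMSO to 56.8 and 65.4 CPM in TM in E4, and from 5.66 and 5.67 to 12.8 and 14.2 CPM in A3, so that the log2 fold change between clones was 2.19 in DMSO and 2.18 in TM. Also higher in E4 were FGF9, a secreted fibroblast growth factor (1.84), COL13A1, a transmembrane collagen (1.66), the zinc finger gene ZNF566 (1.90) and ABCB1, the drug efflux pump P-glycoprotein (1.42, all log2 fold changes of E4 against A3). The other increases among the 12 largest with a mean count of at least 100 and clones apart in each treatment included KHSRPP1, a processed pseudogene of KHSRP, at 4.84, and RN7SL151P, a 7SL RNA pseudogene, at 4.55. Reads of such copies can be shared with their near-identical relatives, so those values are uncertain. The parent gene KHSRP had 522.8 ± 26 CPM in E4 and 502.8 ± 54.4 CPM in A3 (n = 4, edgeR adjusted p = 0.548).

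Genes with the largest decrease in E4 included epithelial membrane and calcium-binding proteins, lipid-metabolic genes and transcription factors. S100A14, a calcium-binding protein of epithelia, was at 17.5 and 15.5 CPM in DMSO and 21.9 and 16.5 CPM in TM in E4. In A3 S100A14 was at 76.5 and 67.5 CPM in DMSO and 103.6 and 85.3 CPM in TM. The parental range, 31.1 to 63.6 CPM, lay between the clones, and the log2 fold change of E4 against A3 was -2.22 (SE 0.064, edgeR adjusted p = 9.40e-10). MAL2, a membrane protein of epithelial transcytosis, ranged from 14.4 to 21.4 CPM in E4 and from 69.1 to 86.5 CPM in A3, while parental cells had 47.8 to 72.5 CPM and overlapped A3 (log2 fold change -2.12, SE 0.060, edgeR adjusted p = 9.40e-10). An antisense gene overlaps the MAL2 locus, and whether strand was used in counting is not stated.

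ACSL5, an acyl-CoA synthetase that activates long-chain fatty acids, was at 26.2 to 29 CPM in E4 and 83.9 to 95.6 CPM in A3, with 56.8 to 85.2 CPM in parental cells and 25.7 to 29.9 CPM in D12 (log2 fold change -1.71, SE 0.060, edgeR adjusted p = 5.47e-09). PPARG, the nuclear receptor that drives adipocyte differentiation and is expressed in colon epithelium, was at 5.00 to 6.71 CPM in E4 and 13.3 to 17.4 CPM in A3 (log2 fold change -1.45, SE 0.110, edgeR adjusted p = 8.02e-06). TMEM200A stood apart in its placing, since both clones were below the parental range: 9.90 to 14.5 CPM in E4 and 37.2 to 50.9 CPM in A3 against 64.6 to 101.5 CPM (log2 fold change of E4 against A3 -1.88, SE 0.071, edgeR adjusted p = 9.19e-09). F3, tissue factor, the starter of blood coagulation, was at 108.9 to 125.4 CPM in E4 and 231.6 to 292.2 CPM in A3, and here E4 overlapped the parental range of 118.7 to 167.1 CPM while A3 lay above it (log2 fold change -1.18, SE 0.050, edgeR adjusted p = 2.61e-08). EPAS1, which encodes the hypoxia-inducible factor HIF-2α, had the same placing, with 17.6 to 25.4 CPM in E4, 41.9 to 54.9 CPM in A3 and a parental mean of 25.04 ± 3.82 CPM (n = 8).
Other genes with a large decrease were the heparan sulfate sulfotransferase gene HS3ST1 (-1.25), the integrin subunit gene ITGB8 (-1.17), the retinal reductase gene DHRS3 (-1.16), the serine protease gene KLK6 (-1.09) and ALDH1A3, which makes retinoic acid (-1.04, all log2 fold changes). The 24 genes with the largest changes, and ALDH1A3, kept their call and direction in every alternative run.

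**Figure D2:**
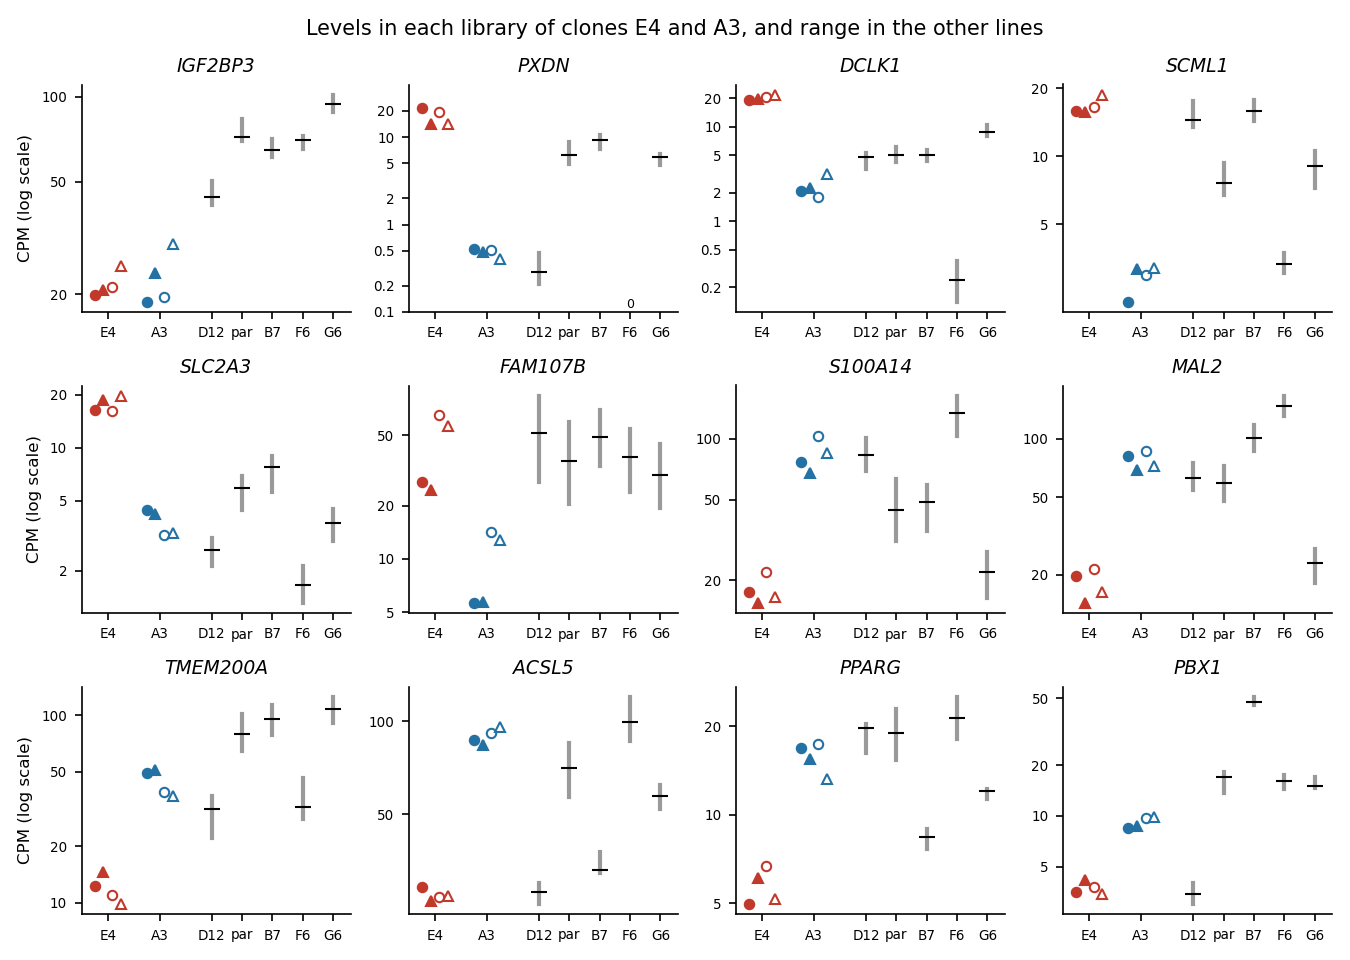
Each panel shows 1 gene in CPM on a log axis: red and blue symbols are the 4 libraries of E4 and of A3 (filled DMSO, open tunicamycin, circle replicate 1, triangle replicate 2), and grey bars with a black tick give the range and median over libraries of D12, parental cells (par), B7, F6 and G6, with 0 marked for PXDN in F6. IGF2BP3 overlaps between E4 and A3, while in the other panels the 4 libraries of each clone are apart; for SCML1 and S100A14 the parental range lies between the clones.

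Epithelial junction and keratin genes were lower in E4 than in A3 wherever they were called. Of 23 list members tested, 10 fell (against 3.34% of all genes tested), none rose and 13 did not pass the test, and the list median was -0.21 on the log2 scale beside 0.0021 for all genes tested. Without the replicate term 7 of the 10 were called, the losses being EPCAM, CLDN4 and CDH3. CDH1, which encodes the adherens junction protein E-cadherin, was at 29.7 and 24.8 CPM in DMSO and 37.0 and 31.2 CPM in TM in E4. In A3 CDH1 was at 41.4 and 39.4 CPM in DMSO and 65.2 and 63.8 CPM in TM. Every A3 library was above every E4 library, and the log2 fold change was -0.75 (SE 0.079, edgeR adjusted p = 1.13e-04). The parental mean of CDH1 was 30.7 ± 7.8 CPM (n = 8), beside 30.7 ± 5.0 in E4 and 52.45 ± 13.98 in A3 (n = 4 each).

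GRHL2, a transcription factor that maintains epithelial identity, was at 7.81 to 13.01 CPM in E4 and 16.9 to 20.95 CPM in A3 (log2 fold change -0.85, SE 0.089, edgeR adjusted p = 1.13e-04), and the parental libraries at 8.24 to 10.9 CPM lay within the E4 range. ESRP1, an epithelial splicing regulator, was at 76.0 and 64.7 CPM in DMSO and 160.4 and 160.1 CPM in TM in E4, against 111.0 and 87.9 CPM and then 242.1 and 229.3 CPM in A3 (log2 fold change -0.53, SE 0.060, edgeR adjusted p = 1.96e-04). The clones were apart within each treatment, and both rose in TM. Among keratins, KRT23 (-1.09), KRT80 (-0.59) and KRT7 (-0.59) fell in E4 on the log2 scale, and among tight junction claudins CLDN7 (-0.67) and CLDN4 (-0.27) fell. The epithelial cell adhesion gene EPCAM had a small difference of -0.30. The main keratins of simple epithelium, KRT8, KRT18 and KRT19, did not pass the test, with log2 values of -0.15, -0.14 and -0.08.

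Of 22 mesenchymal and matrix genes tested, 7 rose in E4 (against 2.86% of all genes tested), 2 fell (against 3.34%) and 13 did not pass the test, with a list median of 0.17 beside 0.0021 for all genes tested. Without the replicate term 5 of these 9 calls held. ZEB1, a transcription factor that represses CDH1, was at 5.67 and 6.34 CPM in DMSO and 6.45 and 7.04 CPM in TM in E4. In A3 ZEB1 was at 2.68 and 2.15 CPM in DMSO and 1.59 and 2.999 CPM in TM. The clones did not overlap (log2 fold change 1.43, SE 0.165, edgeR adjusted p = 2.13e-04), and the parental range of ZEB1, 4.43 to 8.92 CPM, enclosed E4. VIM, which encodes the intermediate filament vimentin, was low in both clones, at 1.95 to 2.98 CPM in E4 and 0.395 to 0.792 CPM in A3 (log2 fold change 2.14, SE 0.219, edgeR adjusted p = 1.02e-04), with 2.00 to 3.39 CPM in parental cells and 0.343 to 0.877 CPM in D12.

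Among matrix genes, COL12A1, a fibril-associated collagen, was at 405.4 to 497.0 CPM in E4 and 308.7 to 349.3 CPM in A3 (log2 fold change 0.48, SE 0.055, edgeR adjusted p = 2.13e-04). THBS1, thrombospondin 1, rose by 0.77 on the log2 scale, although it was below the parental mean in both clones, with 68.7 ± 8.5 CPM in E4, 40.2 ± 4.8 CPM in A3 (n = 4) and 101.7 ± 29.8 CPM in parental cells (n = 8). CCN1 (0.28), a matricellular protein gene, also rose, while PLAUR (-0.25), the urokinase receptor gene, fell. Both calls were lost without the replicate term. FN1, the fibronectin gene, had a log2 fold change of 0.22 and did not pass the test (edgeR adjusted p = 0.151). The summed fibroblast markers given above overlapped between the clones.

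**Figure D3:**
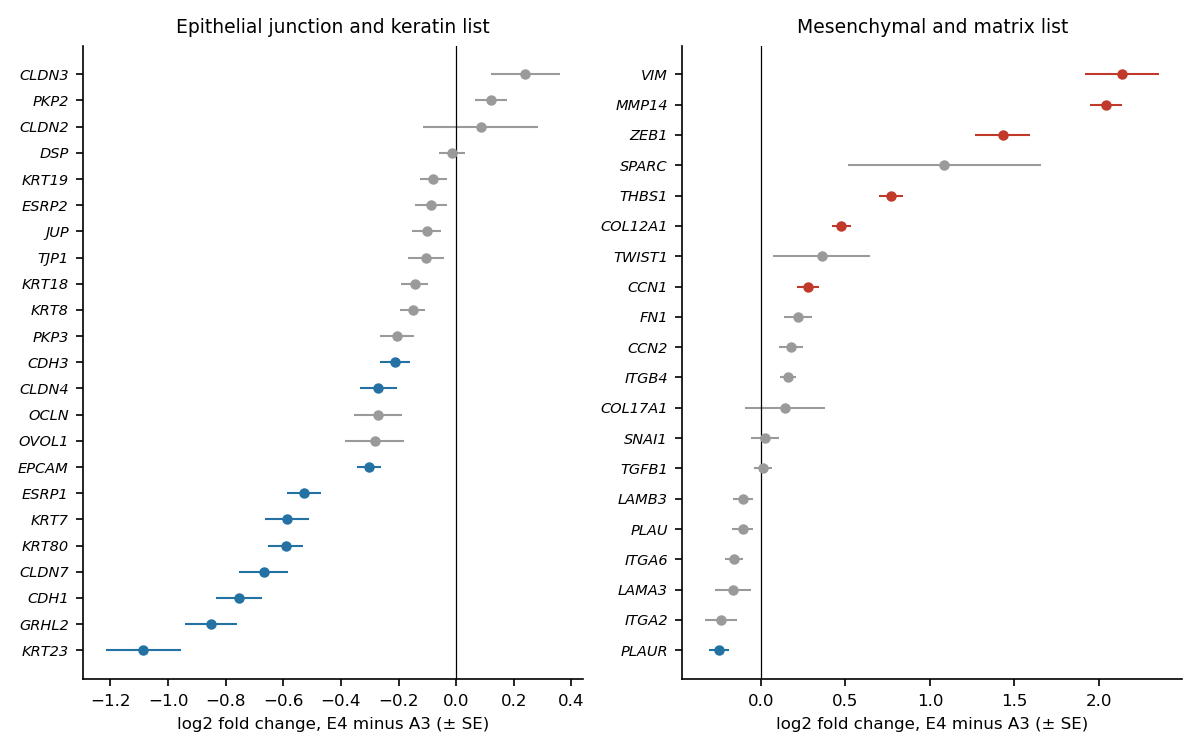
Points give the log2 fold change of E4 minus A3 with its SE for the 23 epithelial junction and keratin genes (left) and for 20 of the 22 mesenchymal and matrix genes (right) tested; red and blue mark genes called higher and lower in E4, and grey marks genes not past the test. The 10 called genes on the left are all below 0, and of those drawn on the right 6 called genes lie above and 1 below.

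Wnt pathway feedback genes and transcription factors of that pathway were called in both directions. Of 12 members tested, 4 rose in E4 and 2 fell, beside 2.86% higher and 3.34% lower among all genes tested, with a list median of 0.24. TCF7, a DNA-binding partner of β-catenin, was at 15.7 to 19.6 CPM in E4 and 29.5 to 37.2 CPM in A3, with no overlap (log2 fold change -0.89, SE 0.070, edgeR adjusted p = 1.17e-05). The parental mean of TCF7, 33.5 ± 1.5 CPM (n = 8), was beside 33.6 ± 3.6 CPM in A3 (n = 4). NKD1, a negative feedback gene, was higher in E4 by 0.35, a call that was lost without E4 TM replicate 1 or without A3 DMSO replicate 2. SOX9 (0.47), AXIN2 (0.65) and RNF43 (0.46) were also called higher and DKK1 (-0.23) lower, but these 4 calls were lost without the replicate term, and AXIN2 and RNF43 also with most single libraries left out. HNF4A, a nuclear receptor that directs enterocyte differentiation, was at 1.69 to 2.27 CPM in E4 and 4.87 to 6.24 CPM in A3 (log2 fold change -1.45, SE 0.129, edgeR adjusted p = 2.75e-05). It was 1 of 4 tested genes of the 23-member intestinal differentiation list, of which the transcription factor gene KLF4 (-0.34) was also called, though not without the replicate term.

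Of 23 EGFR and MAPK feedback genes tested, 5 fell in E4 (against 3.34% of all genes tested) and 1 rose (against 2.86%). The other 17 did not pass the test, and the list median was -0.035. Of the 5 decreases, those of AREG and EREG, ligands of the epidermal growth factor receptor (EGFR), were also called without the replicate term. AREG (amphiregulin) was at 231.1 and 232.5 CPM in DMSO and 730.3 and 732.6 CPM in TM in E4, and at 299.1 and 330.2 CPM in DMSO and 1071 and 983.5 CPM in TM in A3. EREG (epiregulin) was at 1280 and 1298 CPM in DMSO and 2884 and 2937 CPM in TM in E4, and at 1679 and 1699 CPM in DMSO and 4175 and 3950 CPM in TM in A3. Both ligands rose in TM in each clone, and within each treatment every E4 library was below every A3 library. Their log2 fold changes were -0.47 for AREG (SE 0.050, edgeR adjusted p = 1.27e-04) and -0.44 for EREG (SE 0.042, edgeR adjusted p = 5.63e-05). TGFA (-0.22), HBEGF (-0.37) and the phosphatase gene DUSP5 (-0.24) fell and JUN (0.51) rose with the replicate term, and these 4 calls were lost without it. EGFR itself did not pass the test (log2 fold change -0.20, edgeR adjusted p = 0.0640). ERRFI1, an inhibitor of EGFR that stands outside the naming rule and was picked after its values were seen, had one of the larger differences among highly expressed genes, with a log2 fold change of -0.76 (SE 0.050, edgeR adjusted p = 1.81e-06).

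Metabolic genes differed in a few members of each list, beside 2.86% called higher and 3.34% lower among all genes tested. Of 22 glycolysis and hypoxia genes tested, 4 rose in E4 and none fell, while the list median was -0.050. SLC2A1, the glucose transporter GLUT1, was at 242.0 to 268.7 CPM in E4 and 131.3 to 177.8 CPM in A3 (log2 fold change 0.74, SE 0.053, edgeR adjusted p = 4.94e-06). SLC2A3 (above) and the stress-responsive gene NDRG1 (0.39) also rose, as did the enolase gene ENO2 (0.30), whose call was lost without the replicate term. Of 16 aldehyde, xenobiotic and redox enzymes tested, 4 fell and none rose, and the 4 calls held in every alternative run. Of these, NQO1, a quinone reductase, was at 168.6 to 190.3 CPM in E4 and 248.2 to 289.2 CPM in A3 (log2 fold change -0.53, SE 0.058, edgeR adjusted p = 1.58e-04), beside a parental mean of 268.6 ± 16.03 CPM (n = 8). The others were ALDH1A3, the thioredoxin reductase gene TXNRD1 (-0.26) and the vitamin D hydroxylase gene CYP24A1 (-0.32). Of 18 cholesterol synthesis genes, 3 rose, among them MVK (0.34) and LSS (0.27), and 1 fell (SQLE -0.19), and 1 of these 4 calls held without the replicate term.

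Of 11 replication-dependent histone genes tested, 3 rose in E4 (against 2.86% of all genes tested) and none fell (against 3.34%). The list median was 0.53. H1-2, a linker histone gene, was at 25.2 and 34.8 CPM in DMSO and 37.0 and 40.6 CPM in TM in E4, against 20.4 and 17.1 CPM and 23.4 and 23.2 CPM in A3 (log2 fold change 0.70, SE 0.093, edgeR adjusted p = 6.37e-04). Both clones were above the parental mean of 8.93 ± 1.49 CPM (n = 8). H2AC6 (0.63) and H2BC12 (0.46) also rose. Histone genes are near-identical copies and their main transcripts lack poly(A) tails, so their values in poly(A)-selected libraries are uncertain.

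Of 11 mRNAs known to be bound by IGF2BP proteins, CDK6 rose (against 2.86% of all genes tested) and CD44 fell (against 3.34%). CDK6, a cyclin-dependent kinase of the G1 phase, was at 194.1 to 219.9 CPM in E4 and 114.2 to 149.7 CPM in A3 (log2 fold change 0.69, SE 0.059, edgeR adjusted p = 2.23e-05). CD44, an adhesion receptor gene, had a log2 fold change of -0.31. SEMA3A, which encodes a secreted guidance cue, was low in both clones at 2.51 to 3.11 CPM in E4 and 1.27 to 1.92 CPM in A3 beside 44.2 ± 8.7 CPM in parental cells (n = 8), and between the clones it differed by 0.87 on the log2 scale (SE 0.185, edgeR adjusted p = 0.0147). That call was lost without E4 DMSO replicate 1, A3 DMSO replicate 1 or A3 DMSO replicate 2. SEMA7A fell (-0.69), and the other 15 of 17 semaphorin and receptor genes tested did not pass the test. The share called in that list was 11.8%, beside 6.20% of all genes tested.

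Several gene groups had no call between E4 and A3 in edgeR. None of 24 DNA replication and mitosis genes, 10 DNA mismatch repair genes, 10 DNA methylation genes, 15 m6A pathway genes and 13 mitochondrially encoded mRNAs passed the test, and of 30 cytosolic ribosomal protein genes RPL22 did (-0.22). Lists with few or no calls could still lean to one sign. All 10 mismatch repair genes were negative (median -0.0725), as were 26 of 30 ribosomal protein genes (median -0.0552), while 15 of 24 replication and mitosis genes were positive. These leanings were not tested. Of 18 p53 target genes 2 fell (TP53I3 and GDF15, neither held without the replicate term), of 11 NF-kB and cytokine genes CSF1 rose while IL18 and LIF fell, and of 26 HOX genes HOXA3 rose (1.04) and HOXB8 fell (-0.46). The share called was 11.1% for p53 targets and 27.3% for NF-kB and cytokine genes. The HOX share called, 7.69%, was near the 6.20% of all genes tested. Other lists with at most 2 calls were imprinted genes (DIRAS3 and SLC22A18 lower, of 21), interferon-stimulated genes (ISG15 lower, of 13), antigen presentation genes (HLA-DRA lower, of 13, at under 1 CPM) and metallothioneins (MT1F higher, of 5). Their shares called were 9.52%, 7.69%, 7.69% and 20% in that order, beside the same 6.20%. Apart from CSF1 and HOXB8, each call named in this paragraph was lost in at least 1 of the alternatives run. Too few clustered protocadherins (4) and cancer-testis antigens (5) passed the filter on low counts for a count to be read, and neither had a call.

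**Figure D4:**
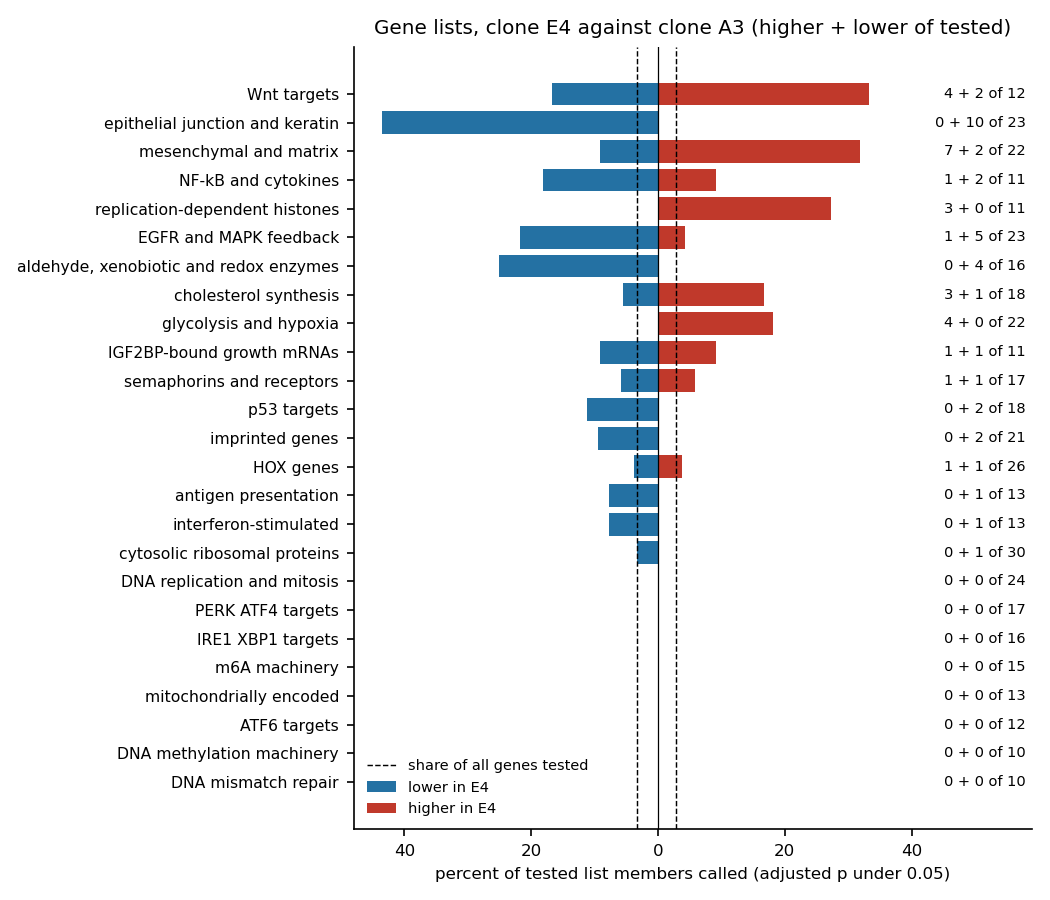
Bars give the percentage of tested members called lower (blue, left) and higher (red, right) in E4 for each list with at least 10 members tested, with the counts of higher and lower calls of those tested at the right edge; dashed lines mark the share of all genes tested, 2.86% higher and 3.34% lower. Epithelial junction genes are called on the lower side in 10 of 23, and the bottom lists have no call.

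The clone difference was also fitted within each treatment. In DMSO 210 genes were called (1.37% of 15291), 102 higher and 108 lower in E4, and in TM 266 were called (1.74%), 111 higher and 155 lower. Of these, 163 were called in both treatments, each in the same direction, while 47 were called in DMSO and not in TM and 103 in TM and not in DMSO. These counts were not stable: without the replicate term 77 genes were called in DMSO and 91 in TM, and with single libraries left out 35 to 492 and 104 to 524. The genes called in 1 treatment are not shown to differ between treatments, since the interaction of clone and treatment had no call in edgeR (0 of 15291, with 239 at an unadjusted p under 0.05) and none in DESeq2. In edgeR the interaction had 16 calls without E4 DMSO replicate 1 and 1 call with all 32 libraries in one fit. None of the 948 genes had opposite signs in DMSO and TM. Those genes were called on the difference common to both treatments, which itself favours equal signs, so no conclusion is drawn from this. The 3 genes with the smallest interaction p were SLC6A9, SLC3A2 and SGMS1, which encode a glycine transporter, a heavy chain of amino acid transporters and a sphingomyelin synthase. Each had a larger TM response in A3: the log2 response of SLC6A9 was 1.85 in E4 and 2.71 in A3, that of SLC3A2 0.76 and 1.32, and that of SGMS1 0.32 and 0.81, with an edgeR adjusted p of 1.00 for each interaction.

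Both clones mounted the unfolded protein response, the programme by which ER stress raises chaperones and curbs protein load through the sensors ATF6, IRE1 and PERK. HSPA5, the ER chaperone BiP, went from 1038 and 884.5 CPM in DMSO to 8054 and 7867 CPM in TM in E4, and from 1113 and 893.6 CPM to 9073 and 8062 CPM in A3. All 12 ATF6 target genes rose in TM in each clone, with a median log2 response of 1.73 in E4 and 1.85 in A3. Among all genes tested, 6.74% were called up in TM in E4 and 7.85% in A3. Of 16 IRE1 and XBP1 target genes, 12 rose in E4 and 11 in A3, with a median of 0.54 in each. All 17 PERK and ATF4 target genes rose in each clone, with medians of 2.78 and 2.86. None of these 45 genes was called between the clones, and none for the interaction. Of the 16 IRE1 and XBP1 targets, 15 had a negative log2 fold change of E4 against A3, with a list median of -0.097. For ATF6 targets 7 of 12 were negative, and for PERK and ATF4 targets 5 of 17. These leanings were not tested. Over all genes the TM response was called for 1981 in E4 (13%, 1031 up, 950 down) and for 2315 in A3 (15.1%, 1200 up, 1115 down). Of the 948 genes that separated the clones, 261 also responded to TM in E4 or A3 and 687 were called for neither response. The share of all genes tested with a response called in E4 or A3 was not computed, so no conclusion is drawn from this split.

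Parental cells were used to place each clone. Against them, 3137 of 15463 genes were called for E4 (20.3%) and 1643 for A3 (10.6%), in 1 fit of 16 libraries in which both contrasts share the parental libraries. Without the replicate term the counts were 1836 and 863, and without parental sample 2 they were 2073 and 882. Of the 948 genes called between the clones, 485 were called against parental cells for E4 and not A3, 181 for A3 and not E4, 116 for both in the same direction, 109 for both in opposite directions and 57 for neither. Library ranges were compared for these 948 genes only, and the matching shares of all genes tested were not computed. The genes were chosen because E4 and A3 differ in these libraries, which itself favours a clone outside the parental range, so no conclusion is drawn from the counts. E4 lay above the parental libraries while A3 overlapped them for 77 genes, and E4 lay below with A3 overlapping for 158. A3 lay above with E4 overlapping for 35 genes and below with E4 overlapping for 60. For 12 genes E4 lay above and A3 below the parental range, for 7 the reverse held, and for 568 both clones overlapped it. S100A14 belongs to the group of 7, with its parental range between the clones.

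Comparisons of the same size and design gave a scale for the number of calls. The 2 parental samples, with no clone derivation named in the labels, had 0 of 15291 genes called between them in edgeR (1241 at an unadjusted p under 0.05, and 161 calls when no filter on low counts was applied). Clones B7 and F6, which share an IGF2BP2 guide, had 4921 of 15015 genes called (32.8%), beside 6.20% for E4 and A3. Without the replicate term the counts were 2809 and 478.

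The pairs E4 and A3, and B7 and F6, share no library, so their calls can be set side by side. Of 14755 genes tested in both, 938 were called for E4 against A3 and 4873 for B7 against F6, and 612 for both, which is 65.2% of the first list and 12.6% of the second. Among these 612 genes, 471 had the same sign in E4 minus A3 and in B7 minus F6. Which clone of a pair is named first is arbitrary, and over all 14755 genes 56.4% had the same sign. No test was made of this overlap. Of the genes with a large difference in both pairs, SCML1 (2.51 and 2.23), FGF9 (1.84 and 3.64) and MMP14 (2.04 and 1.48) were higher in E4 than in A3 and in B7 than in F6, and ACSL5 (-1.71 and -1.58) and S100A14 (-2.22 and -1.49) were lower in both. TMEM200A had opposite signs (-1.88 and 1.45). Of the 10 epithelial junction and keratin genes called in E4 against A3, 7 were called in B7 against F6 with the same sign and KRT7 with the opposite one, while KRT23 and KRT80 did not pass the test. Over the whole list, 16 of 23 members were lower in B7 (against 17% of all genes tested) and 2 higher (against 15.8%). Of the 9 mesenchymal and matrix genes called in E4 against A3, 6 were called with the same sign and 3 with the opposite one, among them THBS1 and CCN1. That list as a whole had 5 of 21 tested members higher in B7 and 12 lower, with a median of -0.19 beside 0.17 in E4 against A3, so the 2 pairs differed in the sign of the median. Genes named above with the same sign in both pairs included CDH1, which had log2 fold changes of -0.75 and -1.40, GRHL2 of -0.85 and -0.93, ZEB1 of 1.43 and 1.77 and VIM of 2.14 and 3.30, in E4 against A3 and B7 against F6, each called in both. Without the replicate term 282 genes were called in both pairs, 224 of them with the same sign.

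**Figure D5:**
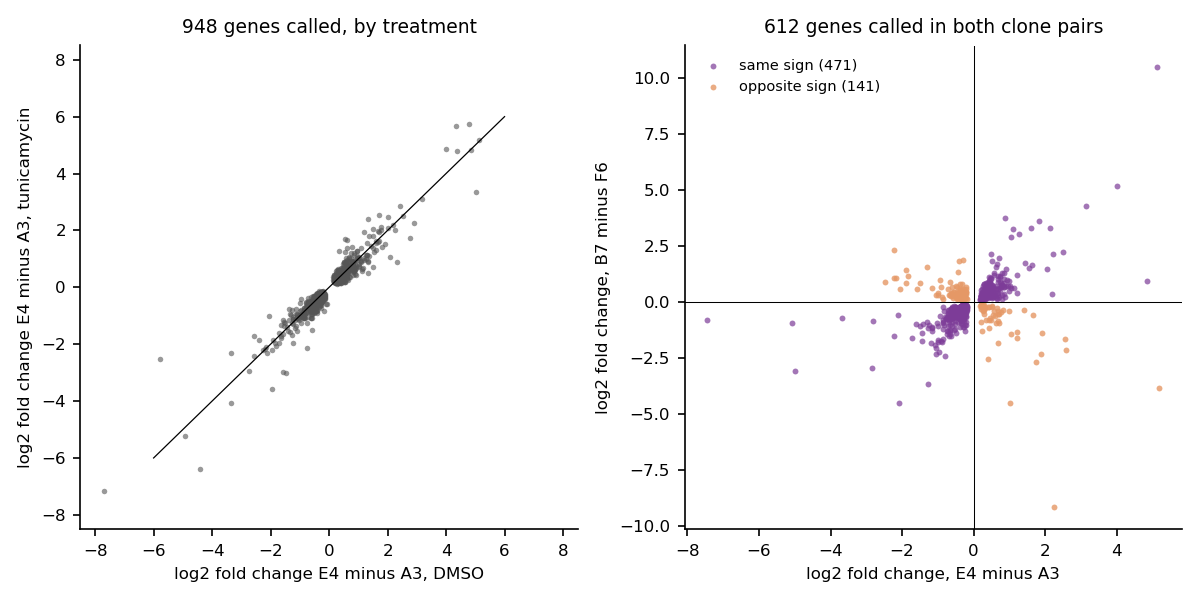
Left, the log2 fold change of E4 minus A3 in DMSO (horizontal) and in tunicamycin (vertical) for the 948 genes called, with the line of equal values. No gene lies in the quadrants of opposite sign, but calls on the difference common to both treatments favour equal signs. Right, the log2 fold change of E4 minus A3 (horizontal) and of B7 minus F6 (vertical) for the 612 genes called in both pairs, of which 471 have the same sign and 141 the opposite one.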

How the data were processed

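The authors deposited raw read counts (whole numbers) for 32 libraries, built from poly(A) RNA with a directional kit per the labels' protocols. The submitters' processing notes name STAR 2.7.5c and hg38 with no role, and the counting tool, annotation and use of strand are not given in the sources used here. Of 60660 gene identifiers, 42022 carried a symbol. Positions come from GENCODE 29 (GRCh38); the annotation used for counting may differ. E4 and A3 were compared with edgeR 4.0.16 in R 4.3.3 (TMM, filterByExpr, quasi-likelihood test, Benjamini-Hochberg, threshold 0.05), with treatment and replicate number as terms, and contrasts by treatment came from a model of clone-by-treatment groups. The SE is the one implied by the F statistic. CPM were TMM-scaled over 32 libraries. Replicate pairs differed beyond sampling noise, so none was treated as a duplicate. Named genes are the 12 largest increases and 12 largest decreases among called genes with a symbol, a mean count of at least 100 and clones apart in each treatment, the 5 called genes over a log2 change of 1 with the highest CPM, the 3 smallest interaction p-values, the 6 genes largest in both clone pairs, called genes of the most extreme chromosome windows, and members of gene lists. A few genes that these rules name are not reported here. The members and lists were chosen with earlier results of these data known. Alternatives included DESeq2 1.42.0. The fits were also run on simulated counts, which held no replicate effect and so cannot show how far the calls depend on the replicate term.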

Additional observations from a re-analysis of the deposited data

How the results depend on the processing

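Whether replicate numbers mark a pairing was not settled. Deviations of same-numbered libraries correlated with r 0.0942 to 0.562 over the 6 pairs of groups, all positive, but 1 missed the value of 0.1 set for all. The replicates of these clones also differed in genes with a count, at 21643 to 23139 in replicate 1 and 23592 to 24267 in replicate 2. The number is a term because the comparison was defined with it. Without the replicate block, calls fell to 478 (E4 against A3), 77 (DMSO), 91 (TM), 2809 (B7 against F6), 1836 (E4 against parental) and 863 (A3 against parental). With all 32 libraries in one fit they were 1808, 712 (DMSO), 734 (TM) and 1 (interaction), and without a filter on low counts 436 (DMSO), 477 (TM) and 161 (parental samples). A log2 fold change above 1 left 123, and replicate 2 libraries alone gave 1809. With parental sample 1 left out A3 against parental gave 1056, and with sample 2 left out E4 gave 2073 and A3 882. Leaving out 1 library at a time gave 474 to 1062 calls for E4 against A3, 35 to 492 in DMSO, 104 to 524 in TM, 0 to 16 for the interaction (16 without E4 DMSO replicate 1) and 1034 to 1743 for A3 against parental. The IGF2BP3 difference turned positive among replicate 1 libraries (0.1139) and without A3 TM replicate 2 (0.008967), from -0.1454 to 0.008967 over single libraries left out. The cause of these shifts was not tested. Of 134 genes followed, 97 kept call and direction in every setting run, and none reversed. Genes at a few reads per library, such as VIM or PXDN in A3, are limited by depth.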

Other observations

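Several called genes lay next to each other on a chromosome and changed in the same direction, and those below were picked after their values were seen, with positions from GENCODE 29 on GRCh38. On chromosome 9 the pseudogenes KHSRPP1 (start 21695176) and RN7SL151P (start 21699314) are neighbours among the genes tested. KHSRPP1 was at 47.5 to 53.6 CPM in E4 and 1.57 to 1.84 CPM in A3, and RN7SL151P at 12.9 to 16.7 CPM in E4 and 0.375 to 0.923 CPM in A3. Parental cells had means of 2.43 CPM for KHSRPP1 and 0.675 CPM for RN7SL151P, so it was E4 that departed. Of the genes around them, MIR31HG, a long noncoding RNA gene (start 21455642), rose by 1.58 on the log2 scale. MTAP, an enzyme of methionine salvage (start 21802543), fell by 0.32 on that scale, with 233.5 ± 12.8 CPM in E4 and 291.2 ± 15.0 CPM in A3 (n = 4). KLHL9 on the other side (start 21329671) did not pass the test in edgeR (adjusted p = 0.859).

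On chromosome 19, 4 zinc finger genes in a row of 5 tested were higher in E4: ZFP14 (1.90), ZNF566 (1.90), ZNF567 (0.99) and ZNF850 (1.75, log2 fold changes). In B7 against F6 the same genes were lower, at -2.32, -1.35, -0.41 and -2.67. ZNF146, nearby, had -0.09 in E4 against A3 and did not pass the test (edgeR adjusted p = 0.736). ZFP14 was at 1.99 to 3.74 CPM in E4 and 0.313 to 1.27 CPM in A3. Of all 382 protein-coding genes named ZNF or ZFP that were tested, 14 were higher and 9 lower in E4. That is 6.02% called, near the 6.20% of all genes tested.

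Of 8 kallikrein-related peptidase genes tested, 5 were lower in E4 (against 3.34% of all genes tested) and none higher (against 2.86%). KLK7 (-0.95), KLK8 (-0.74) and KLK10 (-0.90), secreted proteases of epithelia, are neighbours, and KLK7 was at 15.4 to 21.4 CPM in E4, 31.9 to 40.04 CPM in A3 and 17.2 to 24.96 CPM in parental cells. Of 11 S100A genes tested, 5 were lower and none higher, beside the same shares of all genes, among them the neighbours S100A4 (-0.52), S100A5 (-1.16) and S100A6 (-0.34). TMEM200A stood at the end of a run of 4 neighbours lower in E4, with ARHGAP18 (-0.33), L3MBTL3 (-0.62) and SAMD3 (-1.83).

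By chromosome, the median log2 fold change ran from -0.027 on chromosome 8 to 0.023 on chromosome 14, and chromosome 8 had 33 genes lower and 14 higher in E4 of 525 tested, or 8.95% called beside 6.20% of all genes. Chromosomes 4 (8.32%) and 6 (7.96%) were close to it. The window of 50 neighbouring genes with the lowest median (-0.097) lay at the start of the short arm of chromosome 8 and held 6 called genes, each lower in E4: MCPH1 (-0.22), AGPAT5 (-0.38), CTSB (-0.21), ZDHHC2 (-0.45), SLC7A2 (-0.38) and ASAH1 (-0.22). The calls of MCPH1, CTSB and ASAH1 were lost without the replicate term. The window with the most called genes lay further along chromosome 8 and held 13 of 50, each lower in E4, with a median of -0.081. MAL2 and SQLE were among them, and so was the antisense gene that overlaps MAL2. The window with the highest median (0.109), on chromosome 19, held no called gene.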
